A study of Mus musculus with 2 samples.

Results

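The genes described here are 10 heat shock and chaperone genes of the mouse, Hspa1a, Hspa1b, Hspa5, Hspa8, Hsp90aa1, Hspb1, Hspd1, Hsph1, Dnajb1 and Cryab. They were chosen by symbol and not by a measured value, though with earlier results of these data known. All 10 were found once among the 32285 genes of both deposited matrices. Each gene was followed across the cell classes of 2 single-cell libraries made from mouse brain.

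Both libraries came from the brains of C57BL mice, aged 8 to 13 weeks, that model neuromyelitis optica spectrum disorder (NMOSD), an autoimmune disease in which antibodies bind the astrocyte water channel aquaporin-4. Both carry the 24 h time label. One library, called the negative library below, held the CD45-negative subset, and the other, the positive library, held the CD45-positive subset. CD45 is a surface protein of leukocytes. The labels used here do not say how the model was induced, how the subsets were separated or how many mice were used. An untreated brain was not analysed here. The tissue of both libraries was digested with enzymes at 37 degrees Celsius for 3 rounds of 10 min before capture. With 1 library a subset there is no replicate and no test, so every interval below is a 95% interval for counting error only. Wherever a level differs between the libraries, the subset and the library cannot be told apart, and neither can the model and the digestion. Levels are given as CPM (the UMIs, or distinct captured molecules, of a gene per 1e6 summed UMIs of the same cells).

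Molecular chaperones bind proteins that are unfolded and help them to fold, to be refolded or to be degraded. In the cytosol, Hsp70 proteins (Hspa1a, Hspa1b and Hspa8) work with Hsp40 co-chaperones such as Dnajb1, which deliver clients and stimulate ATP hydrolysis, and with Hsp110 proteins such as Hsph1, which exchange the nucleotide. Hsp90 (Hsp90aa1) takes over late folding steps of kinases and receptors, and the small heat shock proteins Hspb1 and Cryab hold unfolded proteins without using ATP. Hspa5 (BiP) is the Hsp70 of the endoplasmic reticulum, and Hspd1 (Hsp60) folds proteins inside mitochondria. The transcription factor HSF1 switches on the stress-inducible members through heat shock elements, whereas Hspa8 is made in unstressed cells as well.

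The promoters show which members carry these elements, and the Hspa1a and Hspa1b promoters are printed whole because the results turn on these 2 genes. RefSeq promoters on GRCm38.p6 (the build also called mm10) matched 7 of the 10 members, and Hspa8, Hsp90aa1 and Cryab had none. A pair of inverted heat shock units was searched as GAANNTTC or TTCNNGAA, each of which reads the same on both strands, in the 250 bases before the start site. In all, 12.9% of 32536 such promoter windows hold a match, so a match alone is a description and not a binding site. Capitals mark the matches.
Hspa1a, chr17:34972157-34972406, minus strand: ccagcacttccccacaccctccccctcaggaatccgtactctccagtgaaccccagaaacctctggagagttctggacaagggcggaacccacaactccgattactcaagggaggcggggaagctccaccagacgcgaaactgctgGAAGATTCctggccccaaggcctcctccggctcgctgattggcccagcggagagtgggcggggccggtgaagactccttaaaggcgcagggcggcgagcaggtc
Hspa1b, chr17:34959239-34959488, minus strand: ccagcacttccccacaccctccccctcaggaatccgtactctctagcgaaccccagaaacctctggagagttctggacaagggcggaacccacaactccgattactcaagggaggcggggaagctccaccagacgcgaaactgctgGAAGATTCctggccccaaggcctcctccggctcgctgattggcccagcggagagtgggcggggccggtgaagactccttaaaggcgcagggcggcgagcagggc
Hspb1, chr5:135887669-135887918, plus strand: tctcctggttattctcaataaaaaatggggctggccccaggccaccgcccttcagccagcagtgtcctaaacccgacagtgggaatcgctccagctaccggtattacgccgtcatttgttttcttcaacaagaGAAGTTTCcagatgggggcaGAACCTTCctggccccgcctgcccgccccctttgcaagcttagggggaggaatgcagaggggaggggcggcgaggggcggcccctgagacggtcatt
The Hspa1a and Hspa1b windows differ at 3 of 250 positions, and each has its match 104 bases before the start site.

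For Hsph1, Hspd1 and Hspa5, only 30 bases around the match are shown, because these RefSeq windows overlap the GENCODE gene bodies. The Hsph1 window holds a pair of heat shock units. The Hspd1 window, at the second of its RefSeq start sites, holds overlapping pairs that form the 3-unit runs TTCNNGAANNTTC and GAANNTTCNNGAA, of which at least 1 occurs in 0.470% of the promoter windows. The Hspa5 window holds the endoplasmic reticulum stress response element, searched as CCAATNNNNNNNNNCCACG on both strands and found in 0.114% of the promoter windows.
Hsph1, chr5:149636351-149636380, minus strand: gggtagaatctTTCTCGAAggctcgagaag
Hspd1, chr1:55088053-55088082, minus strand: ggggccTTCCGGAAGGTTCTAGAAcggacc
Hspa5, chr2:34772020-34772049, plus strand: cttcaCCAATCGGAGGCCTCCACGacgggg
Dnajb1 has 2 windows, and no match was found in them, which says only that these letters are not there.

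All 10 members are protein-coding genes. In the GENCODE M21 annotation of GRCm38, Hspa1a (chr17:34969190-34972156) and Hspa1b (chr17:34956436-34959238) are neighbouring genes of 1 exon each. Of the 90-base windows of the annotated Hspa1a transcript, 49.3% also occur in Hspa1b, but none of those in its last 500 bases do. The library captures 3' ends, so reads from the far end separate the pair, and the division of reads between the 2 genes remains uncertain where reads fall upstream. No annotated gene covers the 3' end of any of the 10 members. Hspa8 is known for its many processed pseudogenes, so its counts are less certain than those of the others. Because levels carry no length correction, a level is compared between cells here and not between genes.

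After filtering, 12817 of 14524 barcodes of the negative library and 8432 of 8662 of the positive library were kept, with medians of 5412 and 6088.5 UMIs a cell. The libraries share 27 barcodes. Ptprc, the gene for CD45, stood at 7.90 CPM in the negative and 612 in the positive library, and Aqp4, the astrocyte target of the disease, at 264 and 3.11, and a Ptprc UMI was seen in 1.09% of negative and 85.8% of positive cells. Clusters were made without the chaperone genes and named from marker lists. Classes of at least 50 cells are described: 8 in the negative library, from 5229 astrocyte-like cells to 83 smooth muscle-like cells, and 9 in the positive library, from 1988 T cell-like cells to 59 B cell-like cells. In the positive library 2828 kept cells stayed unnamed, most of them in clusters whose UMIs were low or high for the library or whose markers did not decide, against 375 in the negative library. No class reached 50 cells in both libraries.

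Between the libraries, the small heat shock genes stood on the negative side and the endoplasmic reticulum and inducible Hsp70 genes on the positive side. Cryab had 1512 CPM (1504 to 1521) in the negative library and 16.7 (15.8 to 17.6) in the positive library, a 90.6-fold difference (85.7 to 95.9). Hspb1 had 205 (202 to 208) and 14.3 (13.5 to 15.2), 14.3-fold apart. In the other direction, Hspa1b was 3.60-fold (3.46 to 3.74), Hspa5 3.57-fold (3.53 to 3.62), Hspa1a 2.52-fold (2.42 to 2.62) and Dnajb1 2.02-fold (1.91 to 2.14) higher in the positive library. In the negative library 1 cell held 19.7% of the summed Hspa1a and Hspa1b UMIs. Without the highest such cell of each library, Hspa1a stood at 35.8 CPM in the negative and 113 in the positive library, in place of 45.2 and 114. Hspa1b then stood at 35.2 and 154, in place of 43.3 and 156. The intervals of these 2 ratios do not cover this dependence on 1 cell.

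The other 4 members differed by less than 2-fold. Hspa8 stood at 1071 CPM in the negative and 1772 in the positive library, and Hspd1 at 215 and 318. Hsp90aa1 was 1.72-fold and Hsph1 1.59-fold higher in the negative library. Summed, the 10 genes took almost the same share of UMIs, 4785 CPM in the negative and 4787 in the positive library.

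In all, 6 of the 10 members were at least 2-fold apart, 4 higher in the positive and 2 higher in the negative library. Among all 18379 genes with at least 20 UMIs, 57.4% were at least 2-fold apart, 16.5% higher in the positive and 40.9% higher in the negative library. The median of the ratios (log2, positive over negative) was 0.65 over the members and -0.58 over all genes compared. When the ratios were centred on the TMM factor (-0.47 on the log2 scale) or the median of ratios (-0.52), Hspa8 and Hspd1 also lay at least 2-fold higher in the positive library and the count was 8. The plot of levels by library shows each gene with its interval.

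**Figure D1:**
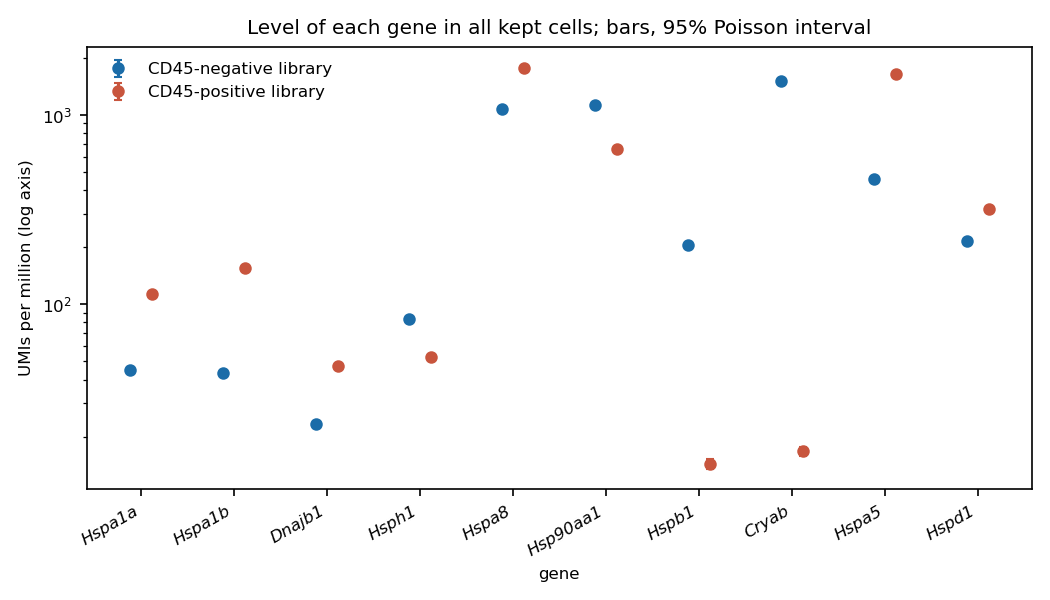
Level of each of the 10 genes (CPM, log axis) in the negative library (blue) and the positive library (red), with bars for the 95% Poisson interval, which is mostly smaller than the point. Cryab (1512 against 16.7) and Hspb1 (205 against 14.3) lie far higher in the negative library, and Hspa5 (459 against 1639), Hspa1a and Hspa1b higher in the positive library.

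The inducible Hsp70 pair was low in astrocyte-like cells, the cells that carry the disease's target, and higher than there in each of the 9 positive classes. In the negative library, Hspa1a had 6.01 CPM (5.15 to 6.98) in astrocyte-like cells, 6.55 in choroid plexus epithelial-like, 12.9 in neuroblast or neural precursor-like, 30.7 in fibroblast-like, 34.6 in pericyte-like, 54.1 in oligodendrocyte-like, 57.7 in smooth muscle-like and 202 (192 to 214) in endothelial-like cells. Hspa1b followed with 4.60 in astrocyte-like, 55.7 in oligodendrocyte-like and 190 in endothelial-like cells. The intervals of astrocyte-like and choroid plexus epithelial-like cells overlapped for both genes, as did those of oligodendrocyte-like and smooth muscle-like cells for Hspa1a.

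In the positive library, Hspa1a ranged from 38.1 in cells like type 2 innate lymphoid cells and 54.7 in B cell-like cells, through 102 in microglia-like and 140 in T cell-like, to 172 in monocyte-like and 233 (220 to 246) in dendritic cell-like cells. Hspa1b was highest in T cell-like cells at 259 (250 to 268), with dendritic cell-like cells at 244 (231 to 258) and neutrophil-like cells at 229 (194 to 270) inside overlapping intervals, and lowest in B cell-like cells at 43.8. With every cell thinned to 1000 UMIs, 0.596% of astrocyte-like cells (0.403 to 0.850) had an Hspa1a UMI, against 4.72% of endothelial-like, 8.39% of microglia-like, 11.0% of T cell-like and 18.4% of monocyte-like cells (14.7 to 22.7). The map of levels by class shows these values for all members.

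**Figure D2:**
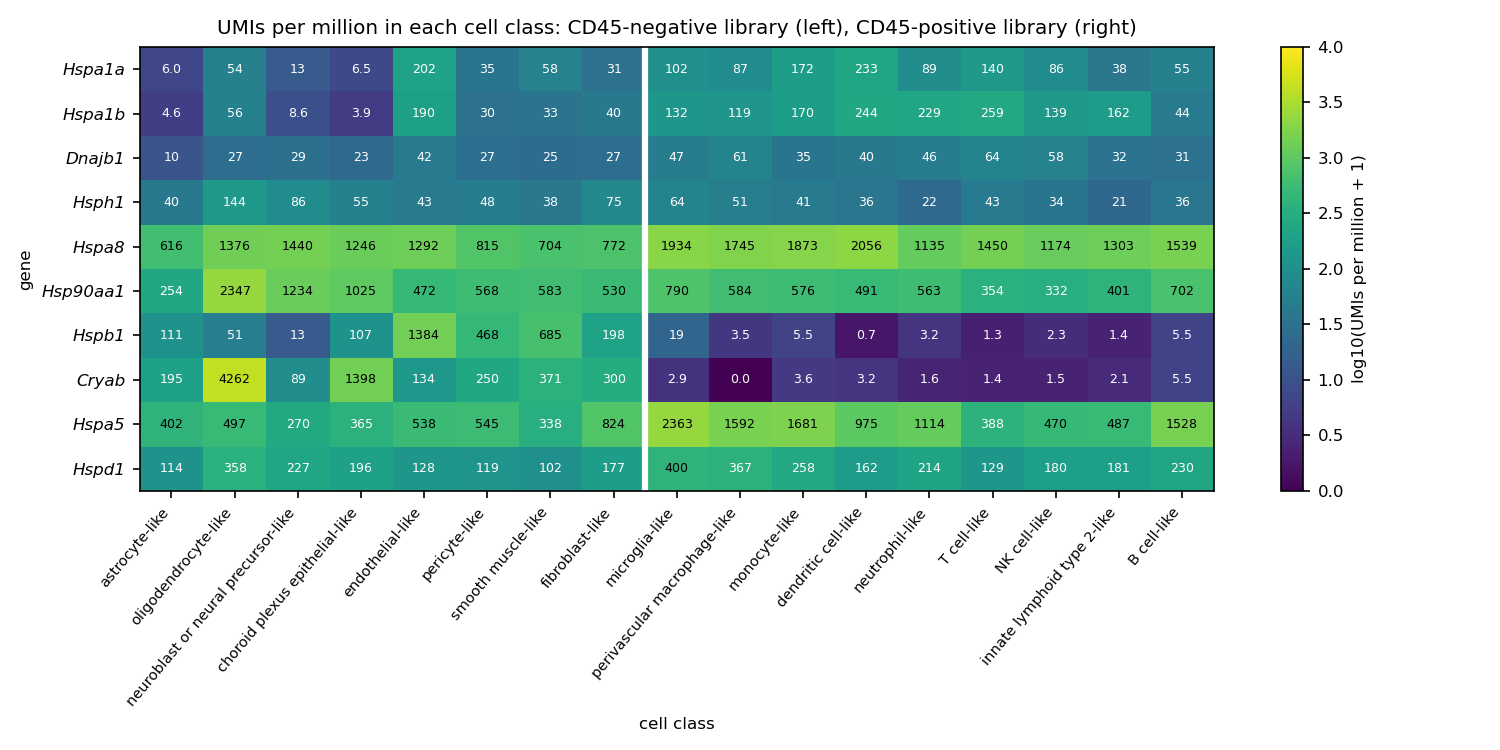
Levels of the 10 genes (rows) in 17 classes (columns), with the negative library on the left of the white bar and the positive library on the right. Each cell gives CPM, with color for log10 of that value plus 1. Cryab reaches 4262 in oligodendrocyte-like cells, Hspb1 1384 in endothelial-like cells and Hspa5 2363 in microglia-like cells, and the Hspa1a row runs from 6.0 in astrocyte-like to 233 in dendritic cell-like cells.

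Most of the pair's UMIs came from few cells. In the negative library 88.0% of kept cells had no Hspa1a or Hspa1b UMI, and 94 of 12817 cells (0.733%) had 10 or more, yet those 94 held 65.0% of the pair's UMIs. In the positive library 611 of 8432 cells (7.25%) had 10 or more and held 59.9%. The cells with 10 or more were deeper: their medians were 10882 UMIs against 5385 for the others in the negative library, and 12687 against 5787 in the positive library.

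A single endothelial-like cell held 1440 of the pair's UMIs among its 6338 UMIs in all, which was 56.8% of the whole endothelial-like class. Without it, endothelial-like Hspa1a stood at 83.0 and Hspa1b at 86.7 CPM in place of 202 and 190, still above the 48.9 and 45.9 of oligodendrocyte-like cells without their own highest cell. Leaving out all cells with 10 or more brought endothelial-like cells to 36.6 for Hspa1a and 37.7 for Hspa1b, and smooth muscle-like cells, at 57.7, then stood highest for Hspa1a. Astrocyte-like cells remained low, at 5.39 and 4.18. Among the 130 neutrophil-like cells of the positive library, 1 cell with 143 UMIs held 71.5% of their pair, and without it Hspa1b stood at 48.0 in place of 229.

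In the dendritic cell-like and monocyte-like classes the cells with 10 or more were common. There were 92 of 479 dendritic cell-like cells (19.2%, 15.8 to 23.0) and 73 of 392 monocyte-like cells (18.6%, 14.9 to 22.8), against 198 of 1946 microglia-like cells (10.2%) and 148 of 1988 T cell-like cells (7.44%). Among endothelial-like cells there were 25 of 1425 (1.75%), among oligodendrocyte-like cells 36 of 2789 (1.29%), and among pericyte-like cells 0 of 1409, which allows up to 0.261% (Clopper-Pearson). Pericyte-like cells nevertheless had a UMI of the pair about as often as endothelial-like cells: 82.0% of the first and 81.8% of the second had none. The medians were 3401 UMIs a cell in pericyte-like and 4454 in endothelial-like cells, and any part of depth in the tails was not tested. The plot of cells by their UMIs of the pair shows the tails.

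**Figure D3:**
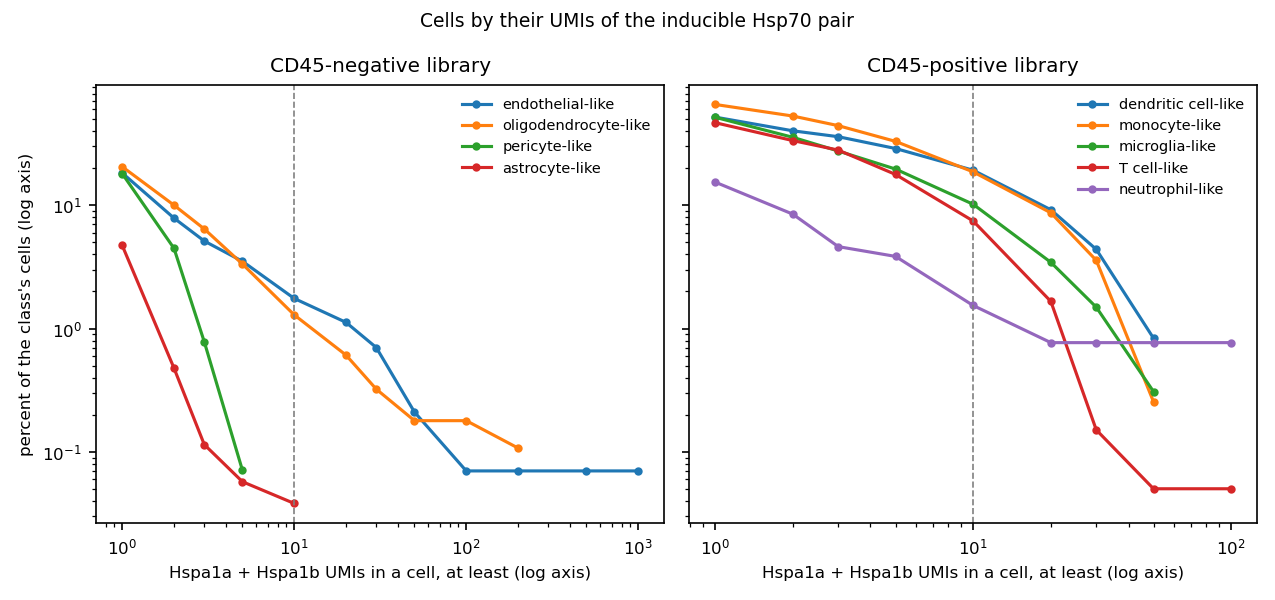
Percent of each class's cells (log axis) with at least the number of Hspa1a and Hspa1b UMIs on the x axis (log axis), for 4 negative and 5 positive classes, with a dashed line at 10 UMIs. Endothelial-like and oligodendrocyte-like cells extend past 100 UMIs, pericyte-like cells end before 10 (at most 7), and 19.2% of dendritic cell-like cells lie at 10 or more.

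Immediate early genes (20 genes such as Fos, Jun and Egr1 that are transcribed within minutes of a stimulus or of handling) were also lowest in the classes with the least Hspa1a of the negative library and highest in its endothelial-like class, but did not follow the order of Hspa1a in the positive library. Their summed level was 566 CPM in astrocyte-like, 480 in choroid plexus epithelial-like, 1540 in oligodendrocyte-like and 5553 in endothelial-like cells of the negative library, and from 3180 in T cell-like to 12501 in neutrophil-like cells of the positive library. In all kept cells they summed to 1639 in the negative and 4219 in the positive library, and 12 of the 20 were at least 2-fold higher in the latter and none in the former, where 16.5% and 40.9% of all genes were. Among endothelial-like cells with 10 or more UMIs of the pair, the highest cell left out, Fos stood at 1298 against 43.9 in the other cells of the class and Jun at 2036 against 269. In such cells of the monocyte-like and dendritic cell-like classes Fos was lower, at 0.738 (0.694 to 0.785) and 0.639 (0.574 to 0.711) of the other cells, and so was the sum of the 20 genes, at 0.926 and 0.920, while Jun was 1.33-fold and 1.66-fold higher. The summed ratio was 2.28 (2.17 to 2.39) in endothelial-like, 1.67 in oligodendrocyte-like, 1.24 in microglia-like and 1.25 in T cell-like cells. The part of the digestion or of the immediate early response in the Hsp70 levels was not tested.

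In oligodendrocyte-like cells rich in the inducible pair, 7 of the 8 other members had a ratio to the other cells of the class whose interval lay above 1, each over 1.5-fold. In the immune classes 3 to 6 of the 8 had such an interval (6 in monocyte-like, 5 in microglia-like, 4 in T cell-like and 3 in dendritic cell-like cells), most of them under 1.5-fold. The share of all genes with such an interval was not computed, so these counts have no background to be set against. The cells compared were chosen by their Hspa1a and Hspa1b UMIs, so the values are a description, and the single highest cell of each class was left out. In the 35 oligodendrocyte-like cells so chosen, Dnajb1 was 4.92-fold (3.70 to 6.43), Hsph1 3.98-fold (3.49 to 4.51), Hspd1 2.44-fold (2.20 to 2.69), Hspa8 2.26-fold (2.14 to 2.38) and Hsp90aa1 1.96-fold (1.88 to 2.04) the level of the other oligodendrocyte-like cells, while Hspa5 was at 0.955 (0.835 to 1.09). Hspe1, the mitochondrial partner of Hspd1, was 3.45-fold higher, and Bag3, a co-chaperone that links Hsp70 to autophagy, 4.34-fold higher. Both small heat shock genes were higher too, Hspb1 5.31-fold (4.37 to 6.40) and Cryab 2.66-fold.

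In 197 microglia-like cells chosen in the same way, Hsph1 was 1.25-fold, Dnajb1 1.30-fold, Hspa8 1.16-fold, Hsp90aa1 1.04-fold and Hspd1 1.02-fold the level of the others. In 72 monocyte-like cells, Hsph1 was 1.49-fold (1.14 to 1.93), Dnajb1 1.42-fold (1.06 to 1.88), Hspd1 1.21-fold (1.09 to 1.35) and Hspa5 1.10-fold higher, and Hspb1, from 25 and 10 UMIs, 6.50-fold (3.02 to 15.2). In 147 T cell-like cells and 91 dendritic cell-like cells, Dnajb1 was 1.97-fold and 1.48-fold higher, and the intervals of Hsph1 (0.967 and 1.09) and Hspd1 (0.863 and 1.02) included 1. Hspa5 was 1.29-fold (1.21 to 1.37) higher in those dendritic cell-like cells. Hspb1 was 3.18-fold (2.64 to 3.81) higher in the microglia-like cells, and its T cell-like ratio of 8.48 rested on 7 and 9 UMIs. In 24 endothelial-like cells, Dnajb1 was higher, at 98.8 against 39.5, and Hspb1 2.06-fold (1.87 to 2.28) higher, while Hspa8 (0.971), Hspd1 (0.676) and Hsph1 (0.457, 0.0936 to 1.35) had intervals that included 1. The difference between the classes was not tested, and the chosen cells were the deeper ones in each. The cut of 10 UMIs also chose unlike cells, since Hspa1a itself was 73.7-fold higher in the chosen oligodendrocyte-like and 54.9-fold in the chosen endothelial-like cells. It was 9.48-fold higher in microglia-like, 6.48-fold in monocyte-like, 12.1-fold in dendritic cell-like and 11.9-fold in T cell-like cells. The ratios of the other members are therefore not like for like between classes.

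Of the 36 oligodendrocyte-like cells with 10 or more UMIs of the pair, 31 lay in 1 cluster of 714 cells led by Klk9, Btc and Cgref1. Inside that cluster 30 cells with 10 or more were compared with the cluster's other cells. The ratios of Dnajb1 (4.87-fold, and 4.92-fold over the class) and Hspa5 (0.935 and 0.955) were close to those over the class. Those of the other members were smaller. Hsph1 was 3.36-fold (2.92 to 3.84) in place of 3.98-fold, and Hspd1 was 1.45-fold (1.30 to 1.60) in place of 2.44-fold. Cryab was 1.51-fold (1.47 to 1.56) in place of 2.66-fold, Hspb1 3.37-fold in place of 5.31-fold, Hspa8 1.67-fold in place of 2.26-fold and Hsp90aa1 1.76-fold in place of 1.96-fold.

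**Figure D4:**
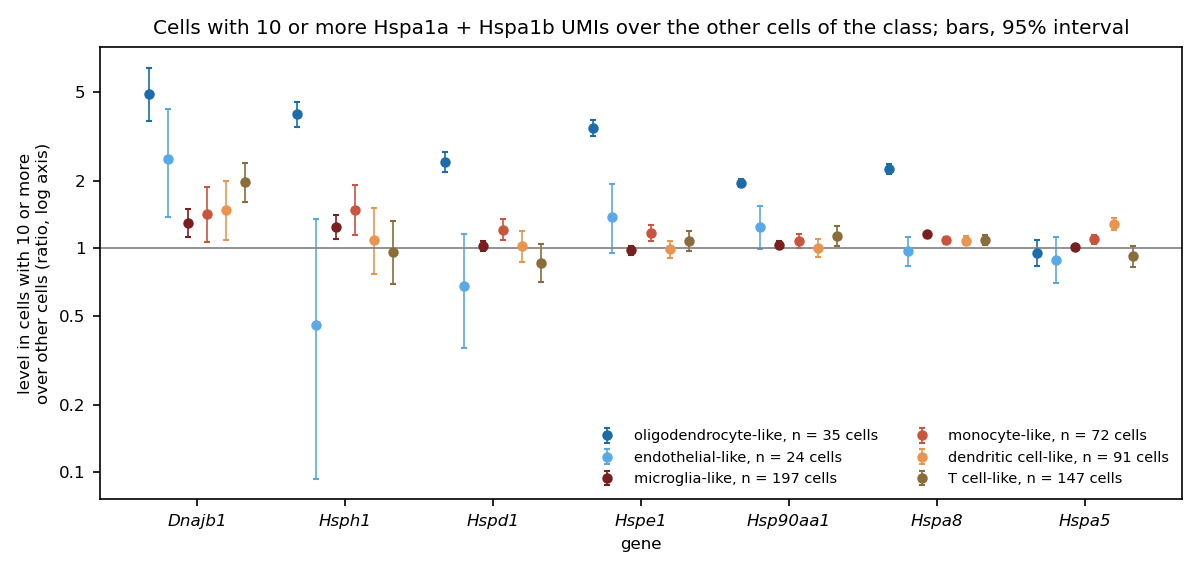
Ratio (log axis) of the level in cells with 10 or more Hspa1a and Hspa1b UMIs to the level in the other cells of the same class, for 7 chaperone genes and 6 classes, with bars for the 95% exact conditional binomial interval and the highest cell of each class left out. The points of oligodendrocyte-like cells (dark blue) lie above those of the other 5 classes for Dnajb1, Hsph1, Hspd1, Hspe1, Hsp90aa1 and Hspa8, and near 1 for Hspa5. The classes are not like for like: Hspa1a itself differs 73.7-fold in oligodendrocyte-like cells and 6.48-fold to 12.1-fold in the immune classes.

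With every cell thinned to 1000 UMIs, Dnajb1 was seen more often beside the pair in oligodendrocyte-like and T cell-like cells, with intervals that did not overlap. Dnajb1 was seen in 6.77% of oligodendrocyte-like cells with an Hspa1a or Hspa1b UMI (3.14 to 12.5) and 1.65% of those without (1.20 to 2.21), and in 9.90% (7.39 to 12.9) and 5.12% (4.05 to 6.38) of T cell-like cells. The intervals overlapped in endothelial-like cells, at 8.91% (4.16 to 16.2) and 3.33% (2.38 to 4.53), in dendritic cell-like cells, at 5.83% and 2.63%, and in monocyte-like cells, where the share was 3.28% with the pair and 6.08% without. Hsph1 was seen in 22.6% (15.8 to 30.6) and 11.0% of oligodendrocyte-like cells, but in 4.33% and 4.51% of T cell-like cells. In microglia-like cells Dnajb1 stood at 4.89% (2.76 to 7.93) and 3.64% (2.78 to 4.66), again with overlap.

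Dnajb1 itself, the Hsp40 partner of the pair, varied less between classes than the pair did, with a highest level 4.04-fold the lowest in the negative and 2.06-fold in the positive library. In the negative library it ranged from 10.4 CPM (9.26 to 11.6) in astrocyte-like cells, through 22.7 in choroid plexus epithelial-like, 26.8 in oligodendrocyte-like and 27.4 in pericyte-like cells, whose intervals overlapped, to 42.1 (37.2 to 47.4) in endothelial-like cells. In the positive library it ran from 31.0 in B cell-like to 63.8 (59.5 to 68.4) in T cell-like cells.

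Hspa8 and Hsp90aa1 were detected in every class. Hspa8, which serves folding and clathrin uncoating in resting cells, lay between 616 CPM in astrocyte-like and 1440 (1416 to 1464) in neuroblast or neural precursor-like cells, and between 1135 in neutrophil-like and 2056 in dendritic cell-like cells. Hsp90aa1 spread more widely, from 254 (248 to 260) in astrocyte-like and 472 in endothelial-like to 1234 in neuroblast or neural precursor-like and 2347 (2328 to 2365) in oligodendrocyte-like cells. Among positive classes, Hsp90aa1 stood at 332 in NK cell-like, 354 in T cell-like and 790 in microglia-like cells. Hsph1, the Hsp110 that works with Hspa8, followed the order of Hsp90aa1 at its upper end, with 144 (140 to 149) in oligodendrocyte-like, 86.4 in neuroblast or neural precursor-like and 39.9 in astrocyte-like cells.

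Cryab, the alpha-B crystallin also known from the lens, was highest in oligodendrocyte-like cells. It had 4262 CPM (4237 to 4287) in oligodendrocyte-like cells and 229 in the rest of the negative library, an 18.6-fold difference (18.3 to 19.0). Choroid plexus epithelial-like cells followed with 1398 (1350 to 1448), and the other classes had 371 in smooth muscle-like, 300 in fibroblast-like, 250 in pericyte-like, 195 in astrocyte-like, 134 in endothelial-like and 89.4 in neuroblast or neural precursor-like cells. In the positive classes Cryab ranged from 0 UMIs in perivascular macrophage-like cells, which allows up to 6.46 CPM, to 5.47 in B cell-like cells, which was 3 UMIs. Its 16.7 CPM in that library came largely from 40 oligodendrocyte-like cells, which held 888 of its 1234 UMIs.

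Hspb1 (Hsp27), which binds actin and unfolded proteins, was highest in the 3 vascular classes. It had 1384 CPM (1356 to 1413) in endothelial-like cells, 13.2-fold (12.8 to 13.6) the rest of the library, then 685 (602 to 775) in smooth muscle-like and 468 (449 to 487) in pericyte-like cells. The lower classes ran from 198 in fibroblast-like through 111 in astrocyte-like and 51.2 in oligodendrocyte-like to 12.9 in neuroblast or neural precursor-like cells. Cldn5, an endothelial junction gene chosen after the data were seen, stood at 5079 CPM in endothelial-like, 16.2 in astrocyte-like, 12.1 in oligodendrocyte-like and 22.6 in pericyte-like cells, and the part of free RNA in the Hspb1 levels was not tested. Among positive classes Hspb1 reached 19.5 in microglia-like cells and 0.748 to 5.53 in the others.

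Hspa5 was higher in myeloid and B cell-like classes than in the other lymphoid classes. It stood at 2363 CPM (2344 to 2381) in microglia-like, 1681 in monocyte-like, 1592 in perivascular macrophage-like, 1528 in B cell-like, 1114 in neutrophil-like and 975 in dendritic cell-like cells. Lower levels were found at 487 in type 2 innate lymphoid-like, 470 in NK cell-like and 388 (377 to 399) in T cell-like cells, with no overlap between the microglia-like and T cell-like intervals. The intervals of monocyte-like and perivascular macrophage-like cells overlapped, as did those of perivascular macrophage-like and B cell-like cells. In the negative library Hspa5 ranged only from 270 in neuroblast or neural precursor-like to 824 (747 to 905) in fibroblast-like cells. The 25 listed genes of the endoplasmic reticulum and the unfolded protein response, which Hspa5 serves as chaperone and sensor, summed to 11286 in microglia-like and 2414 in T cell-like cells.

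Hspd1, the mitochondrial Hsp60, was highest in oligodendrocyte-like cells of the negative library, at 358 (351 to 365), with neuroblast or neural precursor-like cells at 227 and all vascular classes between 102 and 128. In the positive library microglia-like cells had 400 (393 to 408) and T cell-like cells 129 (123 to 136). The intervals of microglia-like and perivascular macrophage-like cells overlapped.

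Against the rest of their own library, 7 of the 10 members were at least 2-fold higher in at least 1 negative class, where 70.1% of 17254 genes were, and 1 member (Hspa1a, in dendritic cell-like cells, 2.23-fold) in at least 1 positive class, where 43.7% of 14783 genes were. For dendritic cell-like cells alone, 7.65% of genes were higher. Oligodendrocyte-like cells had 4 such members, Cryab, Hsp90aa1, Hsph1 and Hspd1, where 8.98% of genes were higher. Endothelial-like cells had 3, Hspb1, Hspa1a and Hspa1b, where 11.7% were. In astrocyte-like cells 9 of the 10 members were at least 2-fold lower than in the rest, where 30.8% of genes were, and the median log2 ratio was -1.47 over the members and -0.25 over all genes. The exception was Hspa5, at 402 against 489. In T cell-like cells 5 members, Hspa5, Hsp90aa1, Hspb1, Hspd1 and Cryab, were at least 2-fold lower, where 34.5% of genes were. Astrocyte-like cells are also the largest class, so the rest of that library is weighted to oligodendrocyte-like and vascular cells.

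Within classes, clusters differed for several members. In oligodendrocyte-like cells, the cluster led by Klk9, Btc and Cgref1 had 8221 Cryab CPM against 1833, 2046 and 2571 in the other 3 clusters, 128 of Hspa1a against 12.9 to 22.3, 687 of Hspd1 against 147 to 258, and 2051 of Hspa8 against 883 to 1147. Its Hspa1a level rested on few cells: 31 of its 714 cells held 76.4% of its Hspa1a and Hspa1b UMIs, and without them Hspa1a stood at 31.1. Hsp90aa1 was close to even there, at 2678 against 1934 to 2409. In astrocyte-like cells, the cluster led by Ptx3, Tgm1 and Cxcl10 (682 cells) had 688 Hspb1 CPM against 11.4 to 78.1 in the other 5 clusters. Its Hspa1a, at 8.48, stayed inside their range of 3.48 to 10.1.

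Among endothelial-like cells, the cluster led by Vwf (202 cells, median 759.5 UMIs) had 593 Hspb1, 548 Cryab and 16.9 Hspa1a CPM. The cluster led by Itm2a and Spock2 had 1430, 138 and 114. The Hspa1a level of the Vwf-led cluster rested on 3 UMIs, and the Ch25h-led cluster of this class is not listed here. Cycling neuroblast or neural precursor-like cells, led by Hist1h3c, Mki67 and Top2a, had 349 Hspd1 and 34.3 Hspa1a against 183 and 5.16 in the Stmn2-led cluster. Over this whole class, 5 of 1092 cells held 43.7% of the Hspa1a and Hspa1b UMIs. Without them the Hspa1a level of the class stood at 6.13 in place of 12.9, and the cluster of those cells is not given here. In microglia-like cells, the cluster led by Egr1, Tnf and Adamts1 had 64.4 Hspb1 against 8.11 and 11.0 in the other 2. Its summed immediate early genes stood at 14055 CPM, against 1802 in the Slc2a5-led and 2012 in the Ch25h-led cluster. Immediate early genes were not left out of the clustering and Egr1 leads this cluster, so that level is not independent of how the cluster was made. T cell-like cells of the Cd4-led cluster had 360 Hspa1b CPM and those of the Cd8b1-led cluster 161, with immediate early genes at 3955 and 2189, while the Foxp3-led cluster of regulatory T cell genes had 797 Hsp90aa1 and 318 Hspd1 against 321 to 573 and 115 to 164 in the other 4 clusters.

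**Figure D5:**
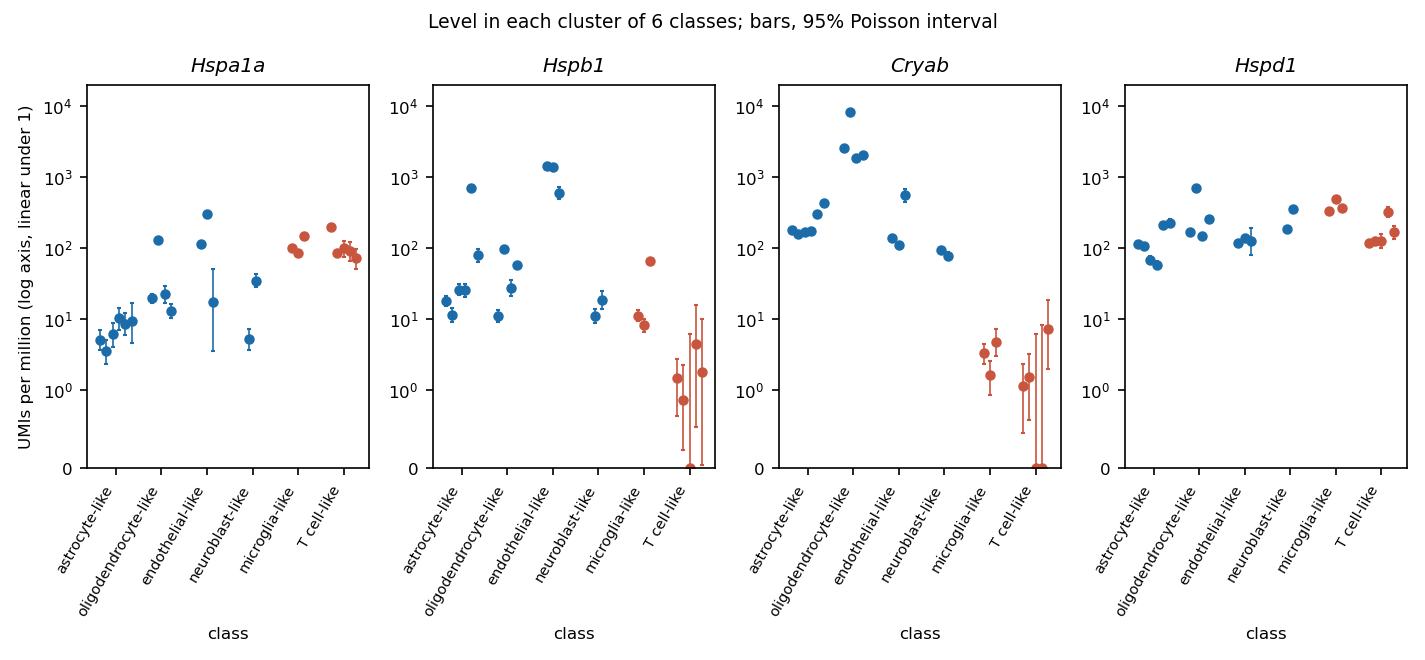
Level of Hspa1a, Hspb1, Cryab and Hspd1 (CPM, log axis, linear below 1) in each cluster of 6 classes, with blue for the negative and red for the positive library and bars for the 95% Poisson interval. One astrocyte-like cluster lies at 688 for Hspb1 and one oligodendrocyte-like cluster at 8221 for Cryab, each apart from the other clusters of its class.

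Other chaperone genes were read from lists by compartment, with the 2 highest and 2 lowest ratios named. Of 25 endoplasmic reticulum and unfolded protein response genes, 14 were at least 2-fold higher in the positive library and 0 in the negative library, where 16.5% and 40.9% of all genes were. Sdf2l1, a partner of Hspa5, was 11.2-fold (10.8 to 11.6) and Edem1, which sends misfolded glycoproteins to degradation, 5.37-fold higher, whereas Dnajb9 stood at 0.697 and the stress factor Ddit3 at 0.741 of the negative level. The median log2 ratio of this list was 1.21, against -0.58 over all genes.

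Of 29 genes of the cytosolic and nuclear heat shock response, 1 was at least 2-fold higher in the positive library (Bag1, a nucleotide exchange factor of Hsp70, 2.69-fold) and 6 in the negative library. That is 3.45% and 20.7% of the list, both under the 16.5% and 40.9% of all genes. Centred on the TMM factor the counts turned to 6 and 3, with 22.6% and 34.6% of all genes, and the list's median log2 ratio moved from -0.08 to 0.39. Hspa2, an Hsp70 family member, was 23.0-fold (20.3 to 26.1) and Dnajb2, another Hsp40, 9.55-fold higher there, and Cdc37, the kinase co-chaperone of Hsp90, was 1.78-fold higher in the positive library. Among 6 other small heat shock genes 4 reached 20 UMIs. Hspb8, the partner of Bag3, was 136-fold (75.6 to 272) and Hspb2, which lies head to head with Cryab, 27.7-fold higher in the negative library. Hspb6 was 7.68-fold higher there, and Hspb3 was 90.4-fold (55.4 to 159) higher in the positive library, with 27.1 CPM in microglia-like cells.

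Most mitochondrial chaperones and proteases lay within 2-fold between the libraries, with a median log2 ratio of 0.00, or 0.47 centred on the TMM factor. Of 9 mitochondrial genes 1 was at least 2-fold higher in the positive library (Htra2, a protease, 2.41-fold) and none in the other, with Hspe1 at 1.99-fold and the protease subunits Clpp and Clpx at 0.525 and 0.614. All 8 genes of the TRiC chaperonin (the cytosolic folding chamber for actin and tubulin) were higher in the positive library, summing to 1777 CPM against 1115, with a median log2 ratio of 0.68 against -0.58 over all genes. Of the 8, 1 was at least 2-fold higher (Cct8, 2.04-fold), or 6 when centred on the TMM factor, with Cct4 at 1.82-fold, Cct7 at 1.34-fold and Tcp1 at 1.31-fold.

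Each member was set beside 12677 genes with at least 500 UMIs by the Pearson correlation of log2(CPM + 1) over the 17 class-by-library groups. The groups share 2 libraries and their depth, so these values are a description. Hspa1a and Hspa1b were each other's nearest gene (0.93). The nearest genes of Hspa5 were Calr (0.98), Hsp90b1 (0.96) and Manf (0.96), all proteins of the endoplasmic reticulum. Those of Hspb1 were Tm4sf1, Cavin1 and Cnep1r1 (0.94 to 0.95), those of Cryab Kazn, Pdk4 and Il33 (0.96), and those of Hspa8 Cfl1, Cct2 and Hsp90ab1 (0.91). Hspd1 (Gspt1, Ipo5, Bin1), Hsph1 (Epb41l3, Usp5, Ints4), Dnajb1 (Hnrnpf, Snapc5, Ppp6r1) and Hsp90aa1 (BC031181, Hars, Mrfap1) had nearest genes between 0.85 and 0.90. Among the members, Hspa1b and Dnajb1 (0.80), Hspa1a and Dnajb1 (0.76) and Hsp90aa1 and Hsph1 (0.73) ran together, and Cryab ran opposite to Dnajb1 (-0.70). Hspb1 and Cryab had 0.79 over the 17 groups, and both stood at 19.5 CPM or less in each positive class. Within the negative library their highest classes differed. Endothelial-like cells had 1384 of Hspb1 and 134 of Cryab, and oligodendrocyte-like cells had 51.2 and 4262.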

How the data were processed

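Each library was made with 10x Genomics 3' v3 chemistry, and the authors deposited 1 UMI count matrix each, written by Cell Ranger 6.1.2 according to the deposited file headers, on the mm10 build per the submitters' processing notes. The members and all gene and marker lists were chosen with earlier results of these data known. Cells with at least 500 UMIs, at least 200 genes and at most 20% mitochondrial UMIs were kept, and doublets called by Scrublet within Scanpy 1.11.5 were removed (876 or 6.03% of CD45-negative and 177 or 2.04% of CD45-positive barcodes). Each library was clustered alone (2000 variable genes, 30 principal components, 15 neighbours, Leiden resolution 1) without 87 chaperone genes. Clusters of at least 100 cells with markers of a further class were clustered once more at resolution 0.5, and all clusters were then named anew. Each class was scored in a cluster by the mean log2 ratio of its markers to the other clusters. A class qualified with at least 3 markers seen in at least 20% of the cells and a positive score. Where none qualified, the cluster stayed unnamed. Otherwise a cluster took the class with the highest score. It stayed unnamed where another class came close or led its top genes, where its median UMIs were low for the library with no own marker among its top 10 genes, or where they were over 3 times the library's median with markers of another class. A further class with at least 5 markers seen and a score over 0.5 also left it unnamed, except between pericyte and smooth muscle. These naming limits, and the limit of 10 Hspa1a and Hspa1b UMIs, were set after the clusters and cells were seen. UMIs were summed per class and library and divided by the summed UMIs; levels have exact Poisson, ratios exact conditional binomial and shares Clopper-Pearson 95% intervals. Total depth came to 92691820 UMIs (CD45-negative) and 76182401 UMIs (CD45-positive), and UMIs are not independent of the cell that gave them, so intervals are too narrow where a few cells hold most UMIs. Genes with at least 20 UMIs were compared. For shares, cells were thinned to 1000 UMIs, leaving 684 and 814 shallower cells aside. No p-value was computed. All 10 members are described; of each other list the 2 highest and 2 lowest ratios are named, and for each member the 3 nearest genes. The ratio and count steps were tested on simulated Poisson counts per gene. Those counts had no differences between cells, so they do not test the intervals where a few cells hold most UMIs. Alternatives were other cell filters, clusterings, fold limits, scalings and ways to average, and the removal of cells rich in Hspa1a and Hspa1b, which was added after seeing the data. A check of free RNA for Cryab is not reported here.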

Additional observations from a re-analysis of the deposited data

How the results depend on the processing

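Of the 10 members, 6 were at least 2-fold apart between the libraries, and this count was 6 with no cell filter, with the stricter filter, with doublets kept, with the mean of levels per cell, with the top 1% of cells left out and without cells rich in Hspa1a and Hspa1b. It was 9 at 1.5-fold, 4 at 3-fold and 8 with TMM or median of ratios. The count of members higher in a CD45-negative class, 7 as reported, ran from 5 to 10. The count in a CD45-positive class, 1 as reported, was 3 with no cell filter, at Leiden resolution 0.5 and at resolution 2, and 2 with the stricter filter, with doublets kept, with the mean per cell and without cells of 10 or more Hspa1a and Hspa1b UMIs. It was 4 with the libraries clustered together, with the top 1% of cells left out and at 1.5-fold, and 0 at 3-fold; the cause was not tested. The class with the highest level was kept in 181 of 220 cases, and in 90 cases no library ratio changed sign. In 52 of those 90 the ratio lay outside its counting interval as first reported. Of 20 highest levels, 7 moved by over 1.5 times in some setting: Hspa1a and Hspa1b in endothelial-like cells (to 36.6 and 37.7), Hspa1a in dendritic cell-like cells (63.6) and Hspa1b in T cell-like cells (149), each without cells of 10 or more such UMIs, Cryab in oligodendrocyte-like cells (2763 with doublets kept), Hspb1 in microglia-like cells (6.55 with the top 1% left out) and Cryab in B cell-like cells (14.2 as a mean per cell, from 3 UMIs). With TMM, and equally with the median of ratios, the genes at least 2-fold higher in the positive library numbered 6 in place of 1 of the 8 TRiC genes, 2 in place of 1 of the 9 mitochondrial genes and 6 in place of 1 of the 29 heat shock response genes, of which 3 in place of 6 were higher in the negative library. No paired analysis was possible because each subset has 1 library.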

Other observations

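Small numbers of glia-like cells were found in the CD45-positive library, below the 50 cells asked of a class. The 49 astrocyte-like cells of the CD45-positive library had 57.6 CPM of Hspa1a (32.9 to 93.6) and 50.4 of Hspa1b, against 6.01 and 4.60 in the 5229 CD45-negative ones, while Hspa8 (619 against 616) and Hspa5 (446 against 402) were close. Their C1qa, a microglial gene, stood at 400 against 4.91. The 40 oligodendrocyte-like cells of the CD45-positive library had 2780 CPM of Cryab, 6.26 of Hspa1a (2 UMIs) and 1734 of Hsp90aa1, against 4262, 54.1 and 2347 in the CD45-negative library. Their C1qa stood at 1049 against 3.35, and any part of microglial RNA in the levels of either group was not tested.

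Some unnamed clusters stood apart in these genes. A CD45-positive cluster of 792 cells was led by Saa3, Afp and Mif, and no class qualified for it by the marker rule. This does not show that its cells lack the markers of every class. The cluster had 15.1 CPM of Hspa1a, 555 of Hspd1 and 900 of the summed immediate early genes. The first and the last lay below each named CD45-positive class of at least 50 cells. A CD45-negative cluster of 139 cells led by S100a9 and C1qa had 303 CPM of Hspa1a and 7444 of the immediate early genes, above each class of at least 50 cells of that library in both. How many of its cells carried the Hspa1a UMIs was not examined.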
